A study of Mus musculus with 6 samples.

Results

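The antioxidant and Nrf2 target genes described here are 32 of the 31053 genes counted in 6 single-cell RNA libraries. They were chosen by function, as peroxiredoxins, enzymes that make or use glutathione, the thioredoxin system, haem and iron genes, superoxide dismutases and catalase, and Nrf2 with its inhibitor. All 32 were found in the gene table by symbol. Their choice was made with earlier results of these data known, and the study itself names Prdx4 and Mgst1.

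The study cultured dendritic cells (DCs) from mouse bone marrow and placed DCs on skin wounds. Each condition was sequenced as 1 droplet library of 3′ transcript ends. The question for these genes was whether they differ after vitamin D3 (VD3), after knockout (KO) of Ndrg2, and in wounds that received the DCs. Untreated DCs and VD3 stimulated DCs came from wild-type C57/BL6 mice, and the VD3 culture received 1e-06 M calcitriol on day 7, for 24 h. Ndrg2-KO DCs were nucleofected with Cas9 protein and guides to Ndrg2, whereas the untreated DCs were not nucleofected, so that in culture the KO and the nucleofection cannot be told apart. Wounds on wild-type mice aged 6 weeks carried pullulan-collagen hydrogels with control DCs, with Ndrg2-KO DCs or with no cells (blank), and tissue of 5 mice per group was pooled on day 10. The study's methods describe control DCs nucleofected with non-targeting guides, and the label of the library calls them untreated.

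Nrf2, encoded by Nfe2l2, is a transcription factor that the adaptor Keap1 holds in the cytoplasm and passes to degradation. Oxidants and electrophiles modify Keap1, and Nrf2 then accumulates and drives genes through antioxidant response elements, among them those for glutathione synthesis, thioredoxin and peroxiredoxin recycling, quinone reduction, haem breakdown and iron storage. In phagocytes and DCs the same enzymes remove peroxides made by the oxidative burst, and macrophages use the haem and iron genes to process red blood cells.

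The labels were first set against marker genes. Levels are given in UMIs (unique molecular identifiers, 1 per captured transcript) after scaling each library to 1000000 UMIs (CPM). Ndrg2 was at 4.62 CPM in untreated DCs, 1.42 CPM with VD3 and 0.884 CPM with Ndrg2-KO. It was lowest in the library labelled as its knockout, although 3′ counting does not show whether the remaining transcripts were edited. In wounds Ndrg2 was at 6.10 CPM with control DCs, 3.33 CPM with Ndrg2-KO DCs and 3.29 CPM with blank hydrogels. The DC genes Itgax and H2-Ab1 were present in all DC libraries, Itgax at 146, 77.8 and 263 CPM and H2-Ab1 at 908, 561 and 487 CPM in untreated, VD3 and Ndrg2-KO DCs. The cultures also held other cells. The 7 granulocyte markers, all above 0 in each culture and led by S100a8, summed to 5602, 6458 and 419 CPM in the same order. The 7 basophil markers summed to 69.6, 64.5 and 12.4 CPM, with Prss34, Mcpt8, Cpa3, Ms4a2 and Fcer1a at 0 in Ndrg2-KO DCs.

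After filtering, 7257 untreated, 8825 VD3 stimulated and 7969 Ndrg2-KO DCs remained, with a median of 15804, 12089 and 16316 UMIs per cell. The wound libraries kept 1948 cells with control DCs, 5681 with Ndrg2-KO DCs and 3403 with blank hydrogels, at medians of 10795, 4415 and 5603 UMIs. The median share of mitochondrial UMIs was 5.30%, 5.60% and 6.60% in the cultures and 1.80%, 0.913% and 1.26% in the wounds, in the same orders. Any pair of libraries shared between 1 and 19 kept cell barcodes out of 35083 kept cells. Intervals are exact 95% intervals and cover counting error only. With 1 library per group there are no replicates, so no p-value was computed, and a member is said to have risen or fallen only where its CPM differed at least 2-fold. Differences are log2 ratios of CPM, and genes below 100 UMIs in the sum of both libraries were not compared.

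The 32 members held 4.54% of all UMIs in untreated DCs, 3.39% in VD3 stimulated DCs and 7.54% in Ndrg2-KO DCs. Most of this was ferritin, since Fth1 and Ftl1 alone took 3.53%, 2.62% and 6.11%. Without ferritin the other 30 members held 1.01%, 0.762% and 1.43%, so the order of the cultures was the same. In wounds the 32 members held 1.97% with control DCs, 3.91% with Ndrg2-KO DCs and 3.39% with blank hydrogels, of which ferritin was 1.43%, 3.13% and 2.66%. The share was thus highest in Ndrg2-KO DCs among the cultures and lowest with control DCs among the wounds.

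Most members were lower in VD3 stimulated than in untreated DCs. Of the 31 members with enough counts, 4 fell (Prdx1, Prdx6, Gclm and Srxn1), against 6.61% of all 12296 genes, and 0 rose, against 3.68%. The members' median log2 ratio was -0.30, and that of all genes was -0.08. Below 0 were 28 members, beside 57.5% of all genes, and 5 of the small ratios changed sign with median-ratio scaling. Among cells under 5% mitochondrial UMIs Prdx1 and Prdx6 no longer passed 2-fold, and Prdx6 did not pass as a mean over cells.

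In Ndrg2-KO against untreated DCs the members split. Here 5 rose (Prdx1, Mgst1, Hmox1, Gstm1 and Gstp1), where 9.12% of 12461 genes did, and 1 fell (Nqo1), where 7.94% did. The members' median of 0.10 lay close to that of all genes at -0.06, with 17 members above 0 and 14 below. Counts on totals without mitochondrial and ribosomal protein genes gave a member median of -0.0033 beside -0.16 for all genes, a scaling that shifts every gene alike. On those totals Prdx1 and Mgst1 no longer passed 2-fold, and as a mean over cells neither they nor Gstm1 passed, whereas Hmox1, Gstp1 and Nqo1 passed in both. Gclm newly passed as lower on those totals, and Prdx5 and Fth1 newly passed as higher with median-ratio scaling and among cells under 5% mitochondrial UMIs. Against VD3 stimulated DCs, the same Ndrg2-KO library had 7 members that were at least 2-fold higher (Prdx1, Prdx5, Hmox1, Srxn1, Gstm1, Gstp1 and Fth1), beside 12.1% of 12402 genes, and 1 that was lower (Nqo1), beside 8.08%. The median there was 0.36 for members and 0.00 for all genes. Prdx5 no longer passed there on totals without mitochondrial and ribosomal protein genes or as a mean over cells, and Nfe2l2 newly passed among cells under 5% mitochondrial UMIs. These 3 comparisons share libraries with each other and are therefore not independent.

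In wounds with Ndrg2-KO DCs against control DCs, 6 of the 32 members rose (Prdx5, Mgst2, Slc7a11, Sod2, Gsr and Fth1), beside 3.92% of 12207 genes, and 0 fell, beside 5.28%. The members' median was 0.28 and that of all genes -0.14. When cells rather than UMIs were weighted equally, the members' median became -0.07 and that of all genes -0.46 in this comparison. With that weighting Slc7a11, Gsr and Mgst2 no longer passed, Prdx5, Sod2 and Fth1 did, and Txn1 newly passed as higher and Sod3 as lower. Gsr also stayed under 2-fold with all barcodes kept or with at least 300 UMIs in place of 300 genes, and Txn1 also passed with median-ratio scaling. Wounds with blank hydrogels against the same control DC wounds had 2 members that rose (Slc7a11 and Gsr), beside 3.06% of 11916 genes, and 0 that fell, beside 3.17%. Their median was 0.08 against -0.03 for all genes, and -0.09 against -0.24 with cells weighted equally, where Gsr did not pass and Sod3 newly passed as lower. Fth1 newly passed with median-ratio scaling, with all barcodes, with at least 300 UMIs and among cells under 5% mitochondrial UMIs. Both wound comparisons use the control DC library and are not independent of each other.

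With a limit of 1.5-fold in place of 2-fold more members passed, and more of all genes did. With VD3, 0 members were then higher, beside 8.91% of all genes, and 6 lower, beside 15%. In Ndrg2-KO over untreated DCs 7 were higher, beside 17%, and 4 lower, beside 17.9%, and over VD3 stimulated DCs 12 were higher, beside 20.8%, and 1 lower, beside 16.6%. In wounds with Ndrg2-KO DCs 10 were higher, beside 8.86%, and 1 lower (Sod3), beside 15.8%, and with blank hydrogels 8 were higher, beside 8.32%, and 2 lower (Mgst1 and Srxn1), beside 11.4%.

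**Figure D1:**
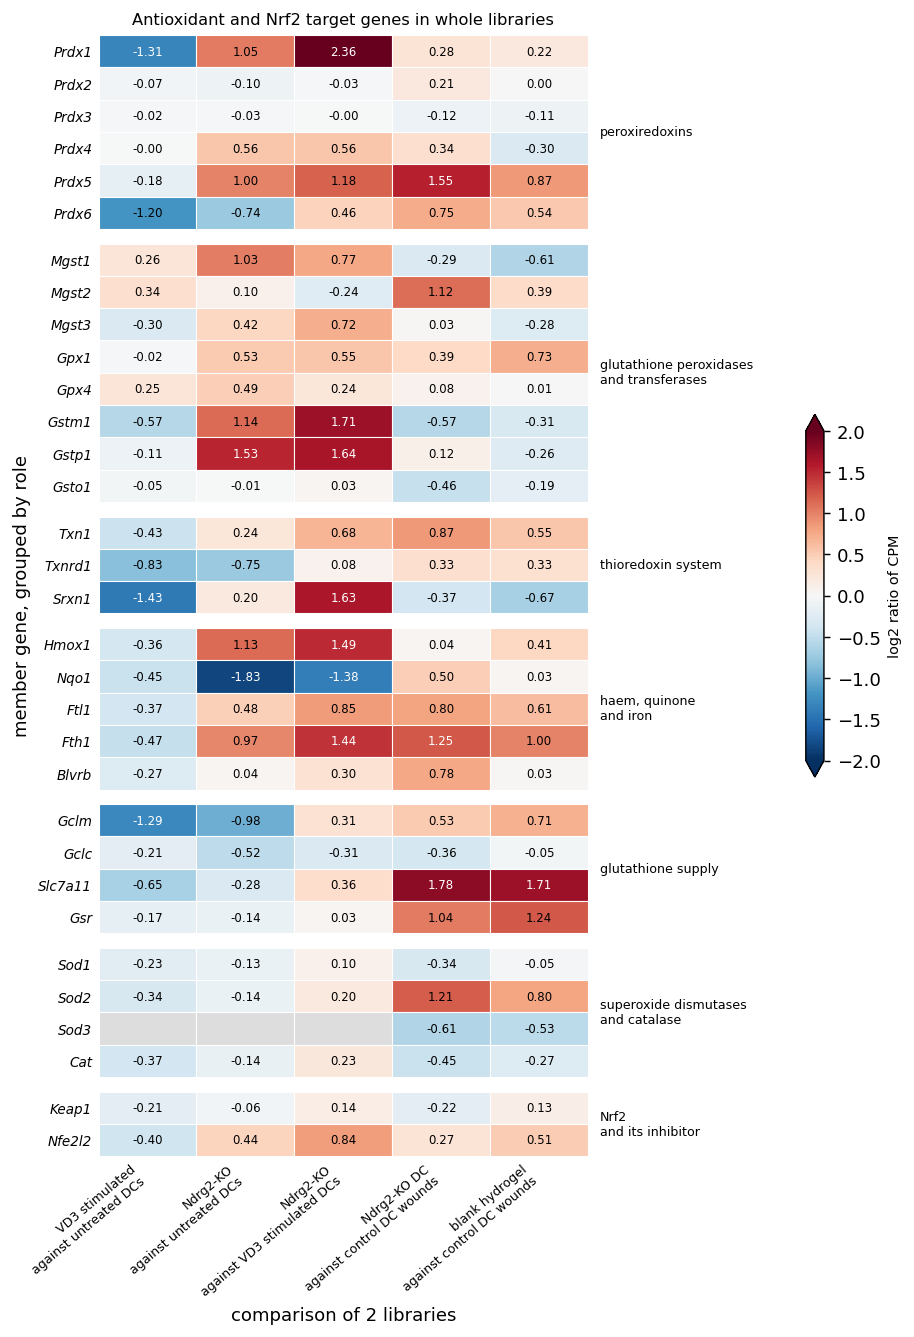
Each row is a member and each column a comparison of 2 libraries, with the log2 ratio of CPM in colour and grey for under 100 UMIs in both libraries together. Prdx1 stands at -1.31, 1.05 and 2.36 in the columns of VD3 over untreated, Ndrg2-KO over untreated and Ndrg2-KO over VD3 stimulated DCs, and Slc7a11 stands at 1.78 and 1.71 in the wound columns.

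The peroxiredoxins, which reduce hydrogen peroxide and organic peroxides, contained Prdx1. As a ratio of highest to lowest CPM, Prdx1 had the widest range over the cultures among the 31 members compared. This cytosolic peroxiredoxin, recycled by thioredoxin, was at 2209 CPM in untreated DCs, 889 CPM with VD3 and 4559 CPM with Ndrg2-KO. It fell with VD3 (log2 ratio -1.31, interval -1.32 to -1.30) and rose with Ndrg2-KO (1.05, interval 1.04 to 1.05). Its wound levels were closer together, at 664, 807 and 773 CPM with control DCs, with Ndrg2-KO DCs and with blank hydrogels.

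Prdx6, which uses glutathione in place of thioredoxin, was at 287, 125 and 172 CPM in untreated, VD3 and Ndrg2-KO DCs. It fell with VD3 (-1.20, interval -1.23 to -1.17), and its ratio in Ndrg2-KO DCs was -0.74. Prdx5, found in mitochondria, peroxisomes and cytosol, was at 799, 704 and 1596 CPM in the same cultures. The Ndrg2-KO level was just under the 2-fold limit over untreated DCs, at 1.998-fold. In wounds Prdx5 was at 331 CPM with control DCs, 968 CPM with Ndrg2-KO DCs and 606 CPM with blank hydrogels. It rose with Ndrg2-KO DCs (1.55, interval 1.52 to 1.58), while the blank hydrogel ratio was 0.87.

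Prdx4, the peroxiredoxin of the endoplasmic reticulum and one of the members that the study itself names, was at 61.9, 61.9 and 91.1 CPM in the DC libraries. Its ratio of 0.56 in Ndrg2-KO over untreated DCs did not reach 2-fold. Wounds had Prdx4 at 58.2, 73.7 and 47.4 CPM with control DCs, with Ndrg2-KO DCs and with blank hydrogels. The cytosolic Prdx2 and the mitochondrial Prdx3 varied little, with log2 ratios between -0.12 and 0.21 over the 5 comparisons.

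The glutathione peroxidases and transferases were the group in which Ndrg2-KO DCs most often exceeded untreated DCs, with 7 of 8 above 0 and 3 past 2-fold, beside 46.1% and 9.12% of all genes. Mgst2 (0.10) and Gsto1 (-0.01) changed sign with the scaling, and of the 3 past 2-fold Mgst1 and Gstm1 did not pass as a mean over cells. Mgst1, a membrane-bound glutathione transferase and peroxidase that the study also names, was at 107 CPM in untreated DCs, 128 CPM with VD3 and 218 CPM with Ndrg2-KO. Its rise in Ndrg2-KO over untreated DCs was barely past the limit, with a log2 ratio of 1.03. In wounds Mgst1 was at 179, 146 and 117 CPM with control DCs, with Ndrg2-KO DCs and with blank hydrogels, so it was not higher with Ndrg2-KO DCs there.

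Gstm1, a cytosolic transferase of the mu class, was at 47.4, 31.9 and 104 CPM in untreated, VD3 and Ndrg2-KO DCs. The pi class transferase Gstp1 was at 4.37, 4.04 and 12.6 CPM. Both rose with Ndrg2-KO, Gstm1 by 1.14 (interval 1.09 to 1.18) and Gstp1 by 1.53 (interval 1.39 to 1.67). Related genes with similar sequence were counted beside them, and how reads were divided among copies is not known from the counts. Gstm2 was at 6.22, 3.47 and 15.7 CPM in these cultures, and Gstm5 at 7.95, 14.2 and 6.79 CPM.

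Gpx1, the main cytosolic glutathione peroxidase, was at 1463 CPM in untreated DCs, 1439 CPM with VD3 and 2112 CPM with Ndrg2-KO. Gpx4, which reduces lipid peroxides in membranes, was at 785, 936 and 1105 CPM. Neither passed 2-fold, with log2 ratios of 0.53 and 0.49 in Ndrg2-KO over untreated DCs. Mgst2 was at 55.1, 69.6 and 58.9 CPM in the cultures but at 1.68, 3.66 and 2.21 CPM in wounds. Its rise in wounds with Ndrg2-KO DCs rested on few transcripts and had a wide interval (1.12, interval 0.66 to 1.60). Gsto1, an omega class transferase, and Mgst3 stayed within 2-fold, with ratios from -0.46 to 0.72 over the 5 comparisons.

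Within the thioredoxin system, Srxn1 had the largest fall with VD3. Srxn1, sulfiredoxin, restores overoxidized peroxiredoxins and was at 70.6 CPM in untreated DCs, 26.2 CPM with VD3 and 81.1 CPM with Ndrg2-KO. The ratio was -1.43 (interval -1.49 to -1.37) with VD3 over untreated and 1.63 (interval 1.57 to 1.69) with Ndrg2-KO over VD3. Txnrd1, the reductase that returns thioredoxin to its active form, was at 211, 118 and 125 CPM in the same cultures. It was thus lower in both treated cultures, by ratios of -0.83 and -0.75 that stayed within 2-fold. Thioredoxin itself, Txn1, was at 1141, 845 and 1352 CPM in DCs and at 500, 913 and 733 CPM in wounds with control DCs, with Ndrg2-KO DCs and with blank hydrogels. Its highest wound ratio was 0.87, with Ndrg2-KO DCs.

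Among the haem, quinone and iron genes, Hmox1 and Nqo1 moved in opposite directions with Ndrg2-KO. Hmox1, which opens the haem ring and releases iron, was at 124 CPM in untreated DCs, 96.7 CPM with VD3 and 271 CPM with Ndrg2-KO. Nqo1, a quinone reductase and a classical Nrf2 target, was at 24.4, 17.8 and 6.86 CPM. Hmox1 rose (1.13, interval 1.10 to 1.16) and Nqo1 fell (-1.83, interval -1.93 to -1.73) in Ndrg2-KO over untreated DCs. In wounds Hmox1 was at 657, 674 and 876 CPM with control DCs, with Ndrg2-KO DCs and with blank hydrogels, while Nqo1 was at 2.16, 3.05 and 2.21 CPM. Neither passed 2-fold in wounds.

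The ferritin heavy chain Fth1, which oxidizes iron for storage, was at 20902 CPM in untreated DCs, 15091 CPM with VD3 and 40938 CPM with Ndrg2-KO. Its ratio in Ndrg2-KO over untreated DCs was 0.97, just within 2-fold, and over VD3 stimulated DCs it was 1.44. In wounds Fth1 was at 10046 CPM with control DCs, 23865 CPM with Ndrg2-KO DCs and 20053 CPM with blank hydrogels. It rose with Ndrg2-KO DCs (1.25, interval 1.24 to 1.25), and the blank hydrogel level was 1.996-fold that of control DC wounds. The light chain Ftl1 was at 14428, 11147 and 20134 CPM in DCs and 4289, 7480 and 6549 CPM in wounds in the same orders. A processed copy of this gene, Ftl1-ps1, was counted at 67.5, 50.5 and 316 CPM in the cultures, and how reads were divided between the copies is not known from the counts. Blvrb, biliverdin reductase B, was at 501, 416 and 513 CPM in DCs and had its highest ratio, 0.78, in wounds with Ndrg2-KO DCs.

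The genes of glutathione supply were lower in both treated cultures than in untreated DCs, and some were higher in wounds with Ndrg2-KO DCs or blank hydrogels than with control DCs. Gclm, the modifier subunit of the enzyme that starts glutathione synthesis, was at 386 CPM in untreated DCs, 158 CPM with VD3 and 196 CPM with Ndrg2-KO. It fell with VD3 (-1.29, interval -1.31 to -1.26), and its ratio of -0.98 with Ndrg2-KO was just within 2-fold. The catalytic subunit Gclc was at 38.4, 33.2 and 26.8 CPM. All 4 genes of this group had ratios below 0 in both comparisons with untreated DCs, beside 57.5% of all genes with VD3 and 53.9% with Ndrg2-KO. Of these ratios only that of Gclm with VD3 passed 2-fold, and both comparisons use the same untreated library. Gsr turned above 0 with VD3 among cells under 5% mitochondrial UMIs and as a mean over cells.

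Slc7a11, the cystine importer that feeds glutathione synthesis, was at 237, 151 and 195 CPM in untreated, VD3 and Ndrg2-KO DCs. In wounds it was at 219 CPM with control DCs, 754 CPM with Ndrg2-KO DCs and 715 CPM with blank hydrogels. It rose in both wound groups, by 1.78 (interval 1.75 to 1.82) with Ndrg2-KO DCs and by 1.71 (interval 1.67 to 1.75) with blank hydrogels. Gsr, which reduces oxidized glutathione, was at 175, 156 and 159 CPM in the cultures and at 59.8, 123 and 141 CPM in these wounds. It rose by 1.04 (interval 0.96 to 1.11) and 1.24 (interval 1.16 to 1.32). The 2 genes were therefore low in the control DC wounds and higher in both other wound libraries.

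Of the superoxide dismutases and catalase, Sod2 was the 1 gene that passed 2-fold where counts allowed a comparison. Sod2, the mitochondrial dismutase, was at 320, 253 and 291 CPM in untreated, VD3 and Ndrg2-KO DCs, and at 213, 491 and 370 CPM in wounds with control DCs, with Ndrg2-KO DCs and with blank hydrogels. It rose in wounds with Ndrg2-KO DCs (1.21, interval 1.17 to 1.25), and its blank hydrogel ratio was 0.80. The cytosolic Sod1 was at 128, 101 and 124 CPM in wounds, and catalase, Cat, which splits hydrogen peroxide in peroxisomes, at 37.7, 27.6 and 31.3 CPM. The secreted dismutase Sod3 was at 117, 77.0 and 81.0 CPM in wounds and at 0.445 CPM or less in the cultures, too few UMIs to compare there.

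Nfe2l2 and Keap1 transcripts stayed within 2-fold in all 5 comparisons. Nfe2l2 was at 154 CPM in untreated DCs, 117 CPM with VD3 and 209 CPM with Ndrg2-KO, and at 321, 387 and 455 CPM in wounds with control DCs, with Ndrg2-KO DCs and with blank hydrogels. Keap1 was at 34.2, 29.6 and 32.7 CPM in DCs and at 19.0, 16.4 and 20.8 CPM in wounds. Since Nrf2 is controlled mainly as a protein, transcript counts do not show its activity.

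Beyond the members, 77 other genes of the pathway were counted from lists of glutathione and thioredoxin genes, NADPH supply and other Nrf2 targets, haem and iron handling, partners of Nrf2, and producers of superoxide and nitric oxide. With VD3, 4 of 71 rose and 7 fell, where 3.68% and 6.61% of all genes did. The named falls were Akr1b8, an aldo-keto reductase (1.16 CPM against 4.56 CPM in untreated DCs), Glrx, glutaredoxin (33.5 against 112 CPM), and Steap3, a ferric reductase (1.81 against 4.81 CPM). The named rises were Idh1, which yields NADPH (279 against 105 CPM), Slc40a1, the iron exporter (5.76 against 2.67 CPM), and Rac2, a subunit of the phagocyte oxidase complex (449 against 215 CPM).

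With Ndrg2-KO against untreated DCs, 15 of these 72 genes rose and 2 fell, where 9.12% and 7.94% of all genes did. Nos2, the inducible nitric oxide synthase, was at 1.73 against 0.0754 CPM, from 248 against 10 UMIs. Bach2, a repressor related to Bach1, was at 4.24 against 0.558 CPM, and Gpx3, a secreted peroxidase, at 37.4 against 5.82 CPM. The falls were Tfrc, the transferrin receptor (15.9 against 43.3 CPM), and Me1, malic enzyme (2.26 against 5.75 CPM). Against VD3 stimulated DCs, 15 of 72 rose and 3 fell in the same KO library, where 12.1% and 8.08% of all genes did. The falls were Gstm5 (log2 ratio -1.06), Osgin1 (-1.05) and Taldo1 (-1.03), and the named rises Nos2 (4.33), Gpx3 (3.26) and Akr1b8 (2.83).

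In wounds with Ndrg2-KO DCs, 4 of 74 rose and 2 fell, where 3.92% and 5.28% of all genes did. Nos2 was at 98.4 CPM against 30.2 CPM with control DCs, Glrx at 152 against 56.6 CPM and Ncf4, a subunit of the phagocyte oxidase, at 95.3 against 39.7 CPM. The falls were Cp, ceruloplasmin (41.8 against 102 CPM), and Ugdh (293 against 616 CPM). Blank hydrogel wounds had 4 of 73 that rose and 2 that fell, where 3.06% and 3.17% of all genes did. Among them were Osgin1 at 35.5 against 12.9 CPM, Ncf4 at 94.4 CPM, Txnip, the thioredoxin-binding protein, at 212 against 92.2 CPM, Gpx3 at 396 against 943 CPM and Cp at 44.2 CPM. All 7 producers of superoxide and nitric oxide had ratios above 0 in both wound comparisons, beside 37.8% and 46.1% of all genes, with medians of 0.92 and 0.73 beside -0.14 and -0.03. The 7 neutrophil markers, all above 0 CPM and led by S100a9, of which 6 rose in each comparison, rose in sum from 8180.2 CPM with control DCs to 25878 and 20270.2 CPM with Ndrg2-KO DCs and with blank hydrogels. Their part in the result was not tested.

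Marker genes of DC states also differed among the cultures. The 8 premature DC markers were all above 0 CPM and summed to 9976, 4195 and 28329.7 CPM in untreated, VD3 and Ndrg2-KO DCs, led by Lyz2 at 6333, 3070 and 17572 CPM. The 8 mature DC markers, also all above 0 CPM and led by Ccl5, summed to 6301, 6200.0 and 5525 CPM. With Ndrg2-KO against untreated DCs, 4 of the 8 premature markers rose and 2 fell, and 7 of the 8 mature markers lay below 0, with 4 that fell and a median log2 ratio of -0.90, although Ccl5 went from 3146 to 3919 CPM. With VD3, 6 of the 8 premature markers fell. Some of these markers were named by the study from the same cells. Members were therefore also compared within cells sorted by these markers. Each cell with at least 2000 UMIs was drawn to 2000 UMIs, which left out 472, 1149 and 134 of the kept cells of untreated, VD3 and Ndrg2-KO DCs, and was placed in a class when at least 3 markers of one list and fewer than 3 of the other were seen. Of the 6785, 7676 and 7835 cells drawn, mature-marker cells made up 41.4%, 50.4% and 23.9%, and premature-marker cells 35.4%, 9.67% and 62.8%. The premature list held Fn1 and Mmp12, which the study reports as higher after Ndrg2-KO in these cells. The share of premature-marker cells with Ndrg2-KO is thus not independent of that list, and the part of these genes was not tested. Many cells lay near the limit, with 468, 738 and 1354 cells at 2 or 3 mature markers and 1990, 2521 and 2305 cells at 2 or 3 premature markers.

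Within each culture, the members' median was lower in mature-marker than in premature-marker cells. In untreated DCs 16 of the 31 members compared were at least 2-fold lower, beside 32.3% of all genes, and 1 was higher, beside 12%. The VD3 stimulated culture had 14 lower, beside 21.2%, and 1 higher, beside 11.8%, and the Ndrg2-KO culture 16 lower, beside 21.5%, and 1 higher, beside 10.5%. The members' medians were -1.16, -0.88 and -1.05, where those of all genes were -0.51, -0.26 and -0.20. Hmox1 was at 207 CPM in premature-marker and 14.8 CPM in mature-marker cells of untreated DCs, Prdx1 at 3292 and 552 CPM, and Fth1 at 30975 and 6414 CPM. The 1 member that was higher in all 3 cultures was Gsto1, with 116 CPM in premature-marker and 324 CPM in mature-marker cells of untreated DCs. The other members compared stayed within 2-fold. The 7 granulocyte markers summed to 795, 1102 and 113 CPM in mature-marker cells of untreated, VD3 and Ndrg2-KO DCs. In premature-marker cells they summed to 3692, 5718 and 298 CPM. The 6 proliferation markers summed to 110, 196 and 45.3 CPM in mature-marker and 1385, 1101 and 685 CPM in premature-marker cells. All of these markers were above 0 CPM, and their part was not tested. Cells of a class share 1 culture, so these values describe each culture and are not replicates.

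The falls with VD3 were seen within premature-marker cells and not within mature-marker cells, a difference that was not tested. In premature-marker cells 4 members fell, beside 6.82% of all genes, namely Prdx1 (-1.05), Prdx6 (-1.17), Gclm (-1.13) and Srxn1 (-1.54), and Mgst2 rose (1.19), beside 3.87%. Prdx1 was at 1589 CPM there with VD3 and at 3292 CPM without. The 7 granulocyte markers, led by S100a8, summed to 5718 CPM in this class with VD3 and to 3692 CPM without. The 8 premature markers, led by Lyz2, summed to 11159 and 17228 CPM, and the 6 proliferation markers to 1101 and 1385 CPM. All of these markers were above 0 CPM, and their part in the falls was not tested. In mature-marker cells 0 fell, beside 3.25%, and 2 rose, Mgst2 (1.22) and Hmox1 (1.22), beside 4.7%. With at least 4 markers needed for a class, 0 passed 2-fold in mature-marker cells. Prdx1 was at 459 CPM in mature-marker cells with VD3 and at 552 CPM without. The granulocyte markers summed there to 1102 and 795 CPM with and without VD3, and the premature markers to 894 and 622 CPM. Their part was not tested. The members' medians were -0.23 and 0.10 in the premature-marker and mature-marker cells, with -0.11 and 0.12 for all genes.

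Ndrg2-KO was then compared with untreated DCs inside these classes. Their cells are part of the whole cultures, so the class values are not independent of the culture values. In premature-marker cells Gstm1 (1.12) and Gstp1 (1.30) rose, beside 9.6% of all genes. There Prdx6 (-1.09), Txnrd1 (-1.10), Nqo1 (-2.20) and Gclm (-1.40) fell, beside 9.34%. The 7 granulocyte markers, led by S100a8, summed to 298 CPM in this class with Ndrg2-KO and to 3692 CPM without. The 6 proliferation markers, led by Stmn1, summed to 685 and 1385 CPM, and the 8 premature markers to 36091 and 17228 CPM. All of these markers were above 0 CPM, and their part in these values was not tested. In this class Prdx1 was at 5661 CPM with Ndrg2-KO and 3292 CPM without, a ratio of 0.78 that is within 2-fold, and the ratio of Hmox1 was 0.66. The share of premature-marker cells thus moved together with the culture values of Prdx1 and Hmox1, and its part in them was not tested. In mature-marker cells 8 members rose, beside 7.16%. They were Prdx4 (1.20), Prdx5 (1.56), Mgst2 (1.19), Gstp1 (2.10), Hmox1 (2.19) and Fth1 (1.20), with Mgst1 at 111 against 27.8 CPM and Nfe2l2 at 89.7 against 44.7 CPM. In the same cells Gclc (-1.05) and Nqo1 (-1.79) fell, beside 3.9%. With at least 4 markers needed for a class, 7 rose and 1 fell in mature-marker cells. The 8 premature markers, all above 0 CPM and led by Lyz2, summed to 622 CPM in mature-marker cells of untreated DCs. They summed to 1492 CPM in those with Ndrg2-KO. In the same order, the 7 granulocyte markers summed there to 795 and 113 CPM and the 6 proliferation markers to 110 and 45.3 CPM. The part of all these markers in the rises was not tested. Gstp1 was higher and Nqo1 lower with Ndrg2-KO in both classes. The members' medians were -0.02 and 0.21 in premature-marker and mature-marker cells, beside -0.13 and 0.15 for all genes.

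Against VD3 stimulated DCs, premature-marker cells with Ndrg2-KO had 4 members at least 2-fold higher, beside 12.6% of all genes, and 2 lower, beside 7.32%. Prdx1 (1.83), Gstm1 (1.57), Gstp1 (1.54) and Srxn1 (1.43) were higher there, and Nqo1 (-2.20) and Mgst2 (-1.27) lower. Mature-marker cells had 4 higher, beside 6.45%, and 2 lower, beside 5.55%. These were Gstp1 (1.90), Mgst1 (1.22), Prdx5 (1.13) and Prdx4 (1.07) on the higher side, and Nqo1 (-2.58) and Gclc (-1.43) on the lower. Nqo1 was thus the member that was lower with Ndrg2-KO in both classes against both other cultures.

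Cells with at least 3 of 6 proliferation markers numbered 1104, 1028 and 705 in untreated, VD3 and Ndrg2-KO DCs. In these cells 4 members were lower with VD3 than without, beside 5.86% of all genes, and 0 higher, beside 3.53%. Srxn1 (-1.60), Slc7a11 (-1.27), Prdx6 (-1.11) and Gclm (-1.09) were the lower ones. Ndrg2-KO over untreated cells gave 4 higher, beside 7.8%, namely Gstm1 (1.35), Gstp1 (1.27), Hmox1 (1.26) and Prdx1 (1.16), and Gclm lower (-1.13), beside 6.64%. Over VD3 stimulated cells 7 were higher, beside 10.6%, led by Srxn1 (2.11) and Gstm1 (2.05), and 0 lower, beside 5.72%. Prdx1 therefore passed 2-fold with Ndrg2-KO in proliferation-marker cells but not in premature-marker cells, a difference that was not tested. The same cell can be in both classes, so they are not separate cell types. Granulocyte-marker cells, which this class can also hold, numbered 791, 847 and 112 in untreated, VD3 and Ndrg2-KO DCs. Their part was not tested.

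**Figure D2:**
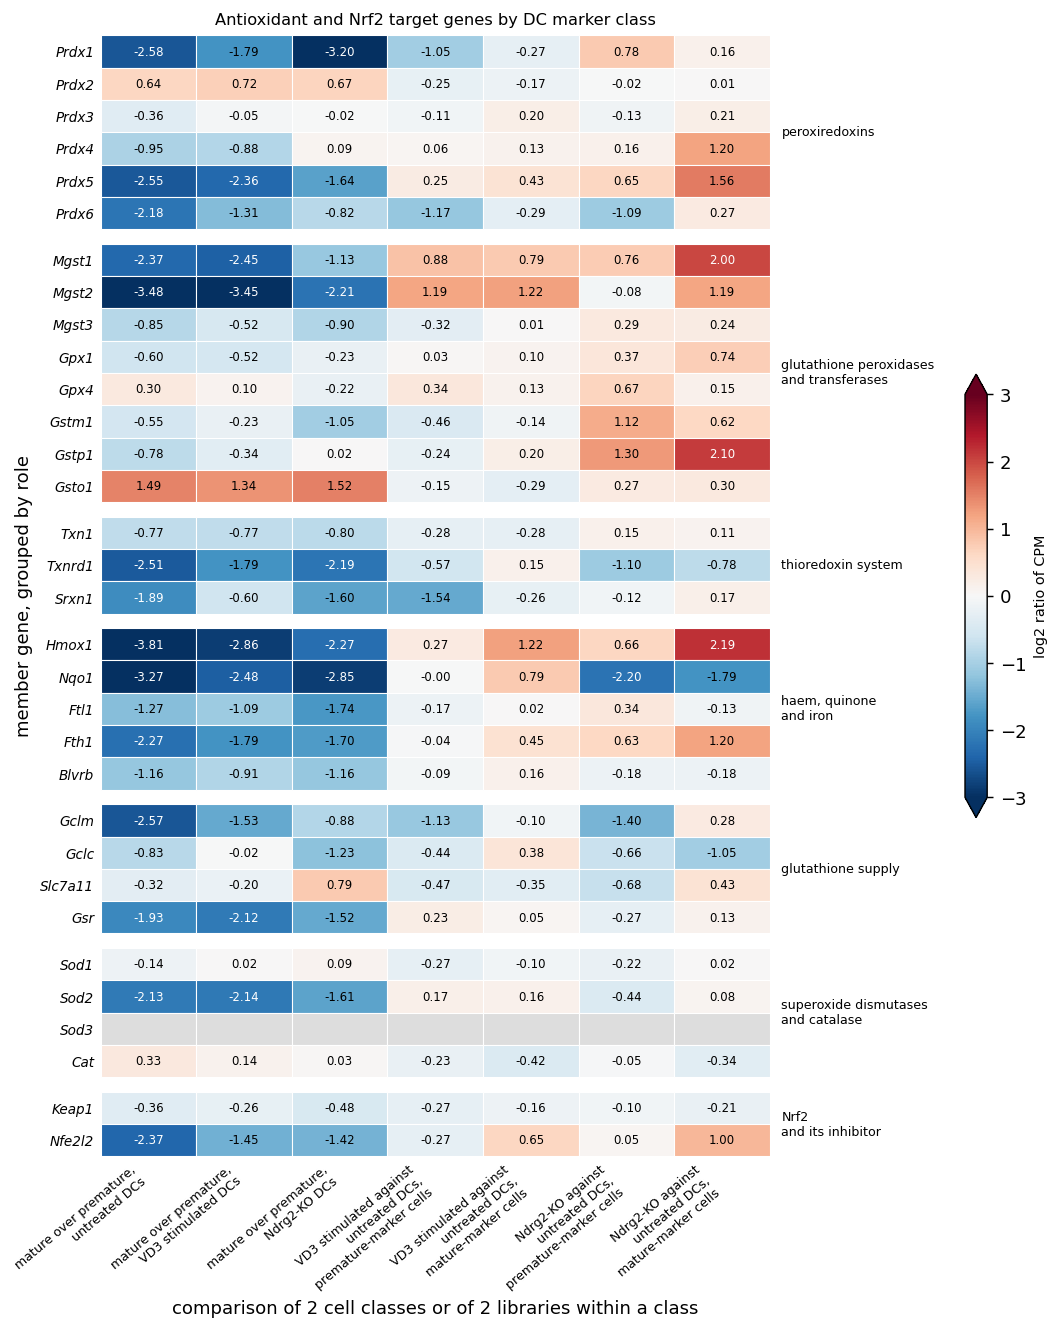
Rows are members and columns compare mature-marker with premature-marker cells of each culture, or a treated with the untreated culture within a class, with log2 ratios of CPM in colour and grey for under 100 UMIs. Gsto1 is positive in the 3 first columns, at 1.49, 1.34 and 1.52, where Hmox1 stands at -3.81, -2.86 and -2.27.

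The mix of cells also differed among the wound libraries. The 7 neutrophil markers, all above 0 and led by S100a9, summed to 8180.2 CPM with control DCs, 25878 CPM with Ndrg2-KO DCs and 20270.2 CPM with blank hydrogels. The 6 fibroblast markers, also all above 0 and led by Col3a1, summed to 48534, 21872 and 22095 CPM. Clusters named from markers placed 23.9% of the control DC wound cells, 51.1% of the Ndrg2-KO DC wound cells and 46.1% of the blank hydrogel wound cells in the neutrophil-like clusters 0 and 1. Fibroblast-like cells, cluster 2, made up 24.7%, 8.82% and 10.0%, and macrophage-like cells, clusters 4 and 7, numbered 385, 661 and 409 cells. In wounds with control DCs, with Ndrg2-KO DCs and with blank hydrogels, the members held 5.57%, 7.53% and 7.34% of the UMIs of neutrophil-like cells. They held 2.44%, 2.72% and 2.48% in macrophage-like cells and 1.02%, 1.17% and 1.05% in fibroblast-like cells. Cluster 3, which no marker list named, had 5.60%, 7.12% and 5.71%. The part of these cell shares in the library values was not tested.

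Slc7a11 and Fth1 give the size of the differences between cell classes. Slc7a11 was at 2693, 2485 and 2865 CPM in neutrophil-like cells of wounds with control DCs, with Ndrg2-KO DCs and with blank hydrogels, where its ratios to control were -0.12 and 0.09. Fibroblast-like cells had it at 8.96, 35.4 and 25.4 CPM. Fth1 was at 40637, 55764 and 53195 CPM in neutrophil-like cells and at 4077, 4538 and 3998 CPM in fibroblast-like cells. The 2-fold rise of Fth1 in whole wounds with Ndrg2-KO DCs was thus not found in either of these classes, where its ratios were 0.46 and 0.15. Gsr was likewise at 432, 326 and 470.3 CPM in neutrophil-like cells, so the rise seen in whole wounds was absent there.

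Inside classes, wounds with Ndrg2-KO DCs still had members that rose over control DC wounds. Neutrophil-like cells had 4 of 21 compared members that rose, beside 4.03% of all genes. Of these, Prdx1 was at 94.7 against 28.0 CPM (1.76), Sod2 at 1010 against 469.7 CPM (1.10), Mgst1 at 100.1 against 49.3 CPM (1.02) and Blvrb at 32 against 12.8 CPM (1.33), and 0 fell, beside 2.13%. These cells held 9799940 UMIs with Ndrg2-KO DCs and 1643666 UMIs with control DCs. In every class a gene was compared when both libraries together reached 100 UMIs. A gene could thus enter through the library where it was high, as Mgst1 did with 981 against 81 UMIs. The part of this limit in the counts of rises was not tested. The neutrophil-like cells were also spread differently over their clusters, with 368 in cluster 0 and 98 in cluster 1 for control DCs, and 1659 and 1242 for Ndrg2-KO DCs. The haemoglobin gene Hbb-bs was at 133 against 2480.4 CPM inside them with control and Ndrg2-KO DCs, and at 933 against 5260.1 CPM in whole wounds. The part of the clusters and of red cell transcripts in these rises was not tested. In macrophage-like cells 4 of 29 compared members rose, beside 2.67%, namely Slc7a11 (1.59), Gstp1 (1.61), Prdx5 (1.21) and Prdx4 (1.11), and Gclc fell (-1.04), beside 0.545%. Fibroblast-like cells had 2 of 30 that rose, beside 3.72%, Slc7a11 (1.98) and Prdx4, at 178 against 86.7 CPM (1.04), and 0 that fell, beside 0.937%.

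Monocyte-like cells, cluster 5, had Slc7a11 as the 1 of 27 compared members that rose (1.15), beside 1.44% of all genes, and 0 fell, beside 0.449%. In cluster 3, 5 of 29 compared members rose, beside 4.66%. These were Prdx6, at 680.4 against 173 CPM (1.97), Sod2 (1.54), Mgst2 (1.46), Prdx5 (1.24) and Slc7a11 (1.17), and 0 fell, beside 2.02%. T cell-like cells, cluster 6, had 5 of 16 compared members that rose, beside 4.89%, and 0 that fell, beside 0.882%. They included Slc7a11, at 148 against 9.25 CPM from 197 against 8 UMIs, and Hmox1 (1.92), Prdx5 (1.54), Sod2 (1.14) and Ftl1 (1.11). T cell-like cells held 1328107 UMIs with Ndrg2-KO DCs and 864524 UMIs with control DCs. Slc7a11 entered this comparison through the library where it was high, and the part of the UMI limit in these counts was not tested. Cluster 8, which held endothelial, mast cell and pericyte markers and stayed unnamed, had 4 of 21 that rose, beside 3.83%, and 3 that fell, beside 4.38%. There Slc7a11 (1.98), Prdx5 (1.44), Fth1 (1.43) and Prdx6 (1.29) rose, and Gclc (-1.42), Hmox1 (-1.30) and Mgst1 (-1.25) fell. The 6 pericyte markers, led by Rgs5, summed to 782 against 1825 CPM in this cluster with Ndrg2-KO and control DCs and the 6 mast cell markers to 4473 against 2396 CPM, all above 0 CPM, and the part of this mix was not tested. Slc7a11 therefore rose in 6 of the 7 classes compared, the exception being neutrophil-like cells.

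Neutrophil transcripts were also counted in cells of other classes, and more of them in wounds with Ndrg2-KO DCs. The 7 neutrophil markers summed to 123, 3305 and 2563 CPM in T cell-like cells of wounds with control DCs, with Ndrg2-KO DCs and with blank hydrogels, all 7 above 0 in each and with S100a9 the most abundant in the last 2. They summed to 125, 596 and 539 CPM in fibroblast-like, 577, 4078 and 1364 CPM in macrophage-like, 2087, 7372 and 3136.5 CPM in monocyte-like and 269, 5077 and 2318 CPM in cluster 3 cells, again with all 7 above 0. Slc7a11, Prdx5 and Sod2 were each higher in neutrophil-like than in T cell-like cells of every wound library. Hbb-bs was also higher with Ndrg2-KO than with control DCs in T cell-like (4682 against 1574 CPM), fibroblast-like (1240 against 125 CPM), macrophage-like (2194 against 1231 CPM) and cluster 3 cells (2199 against 329 CPM), and lower in monocyte-like cells (2293 against 3461 CPM). In cluster 3 the 8 macrophage markers, all above 0 CPM and led by Apoe, summed to 7005 against 13912 CPM. The part of neutrophil, red cell and macrophage transcripts in the rises inside these classes was not tested.

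Blank hydrogel against control DC wounds gave fewer members past 2-fold inside classes. From 14 members in T cell-like cells to 30 in fibroblast-like cells could be compared. Slc7a11 rose in fibroblast-like (1.51), macrophage-like (1.38) and monocyte-like cells (1.44), where 2.17%, 1% and 1.4% of all genes rose. In neutrophil-like cells Prdx1 (1.19) and Gclc (1.39) rose, beside 4.37%, in T cell-like cells Hmox1 (1.29), beside 3.05%, and in cluster 3 Prdx6 (1.10), beside 1.94%. Mgst1 was the 1 member that fell, in cluster 8 (-1.86), beside 3.93%. Between control DC and blank hydrogel wounds Hbb-bs went from 133 to 1265 CPM in neutrophil-like cells, from 329 to 1672 CPM in cluster 3 and from 1574 to 61.8 CPM in T cell-like cells. It went from 125 to 594 CPM in fibroblast-like, from 1231 to 816 CPM in macrophage-like and from 3461 to 406 CPM in monocyte-like cells. The 8 macrophage markers, led by Apoe, went in sum from 13912 to 9821 CPM in cluster 3 and from 11208 to 6857 CPM in monocyte-like cells. The 6 fibroblast markers, led by Col1a1, went from 11813 to 21765 CPM in cluster 8, and all these markers were above 0 CPM. The part of these transcripts was not tested. The control DC cells are the same in these and the Ndrg2-KO DC comparisons.

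**Figure D3:**
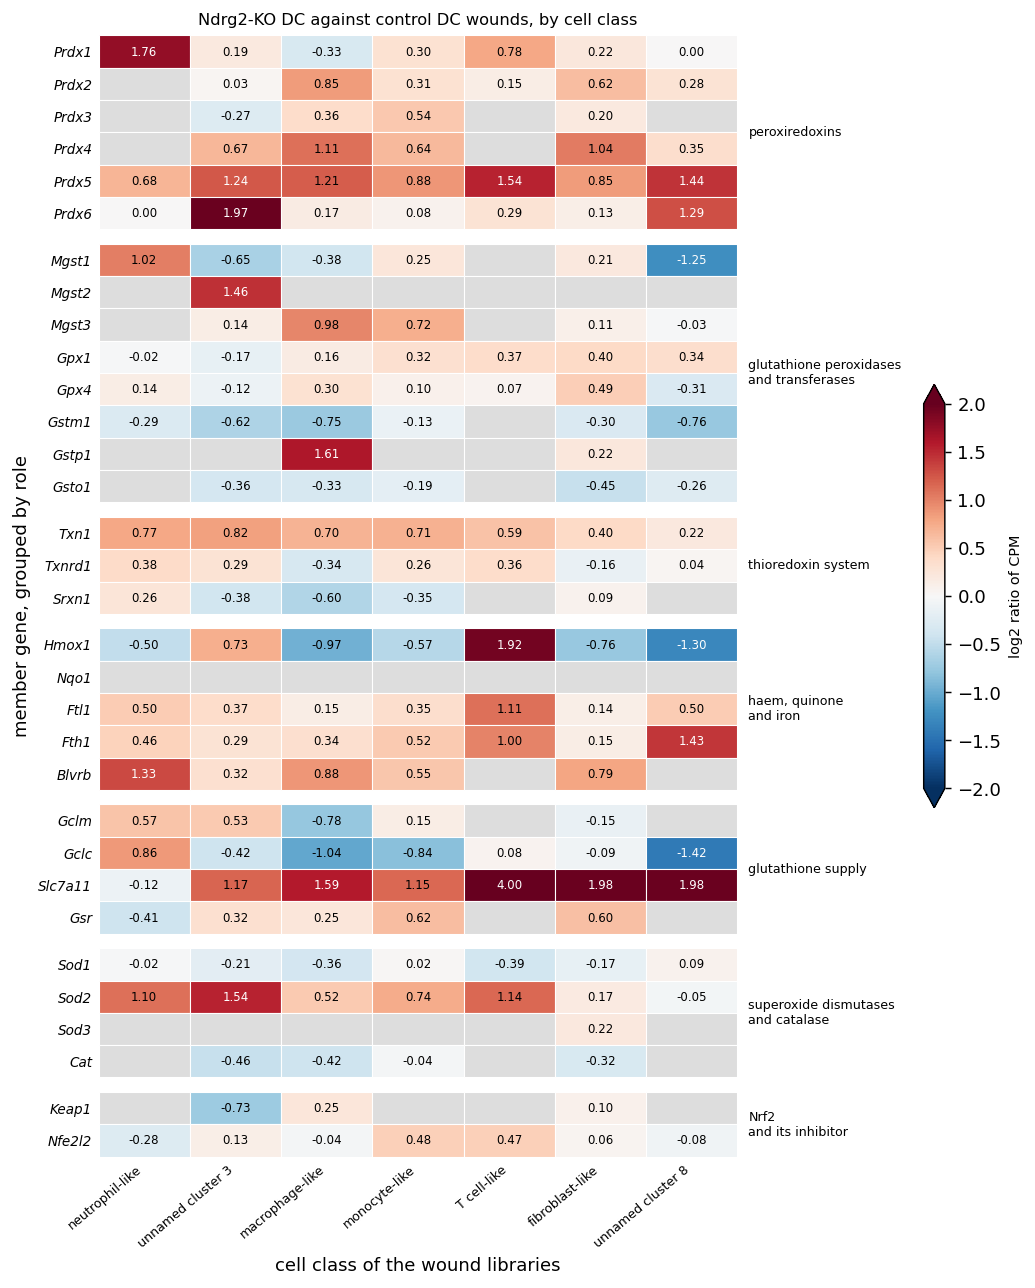
Rows are members and columns are 7 classes of wound cells, with the log2 ratio of CPM in Ndrg2-KO DC over control DC wounds in colour and grey for under 100 UMIs. Slc7a11 is at 1.98 in fibroblast-like cells and at -0.12 in neutrophil-like cells.

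The promoters of members were searched for the core letters of the antioxidant response element, since many members are known targets of Nrf2. Promoter windows of 300 bases, from 250 before to 50 after the start, came from RefSeq on GRCm38.p6, and 27 of the 32 members matched, with 36 windows. The table of windows used here, which is not complete, had no entry for Prdx6, Hmox1, Gclc, Sod3 and Gsr. The motif TGACNNNGC was sought on both strands. It was found in 7 of the 36 member windows (19.4%), and in 4071 of all 32851 windows (12.4%). The matches are printed because they lie in genes that passed 2-fold in a culture (Prdx1, Mgst1, Gclm and Srxn1) as well as in genes that did not (Txnrd1, Sod1 and Nfe2l2). A match is a description of letters and does not show binding. Each is written from 5′ to 3′ on the strand of its gene, with the motif or its reverse complement in capitals. The positions are chr4:116685456-116685484 for Prdx1, chr6:138140461-138140489 for Mgst1, chr3:122245413-122245441 for Gclm, chr2:152105542-152105570 for Srxn1, chr10:82859104-82859132 for Txnrd1 and chr16:90220696-90220724 for Sod1, all on the plus strand, and chr2:75704885-75704913 on the minus strand for Nfe2l2.
Prdx1: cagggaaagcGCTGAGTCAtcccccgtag
Mgst1: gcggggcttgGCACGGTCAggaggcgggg
Gclm: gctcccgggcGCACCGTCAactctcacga
Srxn1: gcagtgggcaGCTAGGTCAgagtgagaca
Txnrd1: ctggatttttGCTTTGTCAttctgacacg
Sod1: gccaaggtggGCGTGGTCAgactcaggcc
Nfe2l2: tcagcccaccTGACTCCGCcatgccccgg
The window of Nfe2l2 alone held the motif on the strand of the gene, and the other 6 held it on the opposite strand.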

How the data were processed

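The authors deposited UMI counts per gene and cell barcode from Cell Ranger 3.1.0 (DCs) and 6.0.0 (wounds). Kept cells had 300 genes or more, fewer than 100000 UMIs and less than 10% of UMIs from mitochondrial genes, and doublets were not removed. UMIs were summed per library or class, scaled to CPM and compared as log2 ratios with exact conditional binomial intervals. Wound cells were clustered with Seurat 5.3.0 in R 4.3.3 (15 principal components, 15 neighbours, resolution 0.5, members left out of the 2000 variable genes). Classes with fewer than 50 cells in a library were not compared. Other steps used SciPy 1.17.1, pandas 2.3.3 and NumPy 2.4.6 in Python 3.11.15, with Scrublet from scanpy 1.11.5. Every member is reported. Of the other pathway genes, up to 3 rises and 3 falls per comparison were named among genes with at least 200 UMIs in a library. Alternatives covered cell filters, doublets, scaling, means over cells, count minimums, 1.5-fold, and class settings. The members and lists were chosen with earlier results of these data known.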

Additional observations from a re-analysis of the deposited data

Results flagged for a closer look

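In wounds with Ndrg2-KO DCs against control DCs, 2 members moved past 2-fold in opposite directions in different cell classes. Hmox1 had a log2 ratio of 1.92 (interval 1.43 to 2.44) in T cell-like cells, at 175 against 46.3 CPM from 233 against 40 UMIs. In cluster 8, which held endothelial, mast cell and pericyte markers, it had a ratio of -1.30 (interval -1.59 to -1.01), at 193 against 473 CPM. Mgst1 had a ratio of 1.02 (interval 0.69 to 1.37) in neutrophil-like cells, at 100.1 against 49.3 CPM, and one of -1.25 (interval -1.73 to -0.78) in cluster 8, at 73.9 against 175 CPM. These differences between classes were not tested, since each class has 1 library per group. The 7 neutrophil markers, led by S100a9, summed to 1081 CPM in cluster 8 of control DC wounds and to 6614 CPM with Ndrg2-KO DCs. The 6 pericyte markers, led by Rgs5, summed there to 1825 and 782 CPM, the 6 mast cell markers, led by Mcpt4 and Cma1, to 2396 and 4473 CPM, and the 6 fibroblast markers, led by Col1a1, to 11813 and 9677 CPM, all above 0 CPM. The haemoglobin gene Hbb-bs went from 283 to 1583 CPM in cluster 8 and from 1574 to 4682 CPM in T cell-like cells. The part of these transcripts in the result was not tested.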

How the results depend on the processing

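No paired analysis was possible because each condition has 1 library and no library of one group belongs to one of another. Of 1099 values of single members under 7 alternatives, 592 stayed within their counting interval and 507 moved. No member past 2-fold changed direction under them, and 72 smaller ratios changed sign. The members' median for VD3 against untreated DCs (-0.30) was -0.23 under 5% mitochondrial UMIs, -0.22 with median-ratio scaling, -0.20 without mitochondrial and ribosomal protein genes and -0.18 as a mean over cells. Its count of 4 became 2 under 5% mitochondrial UMIs. For Ndrg2-KO against untreated DCs the median (0.10) was 0.24, 0.17 and -0.0033 with the first 3 of these, and its count of 6 became 5 without mitochondrial and ribosomal protein genes, 3 as a mean over cells, 7 with no minimum and 11 at 1.5-fold. For Ndrg2-KO against VD3 stimulated DCs the median (0.36) was 0.41 with all barcodes, 0.47 under 5% mitochondrial UMIs and 0.17 without mitochondrial and ribosomal protein genes, and 13 members in place of 8 passed 1.5-fold. For wounds with Ndrg2-KO DCs the median (0.28) was 0.42 with median-ratio scaling, -0.0723 as a mean over cells and 0.24 above 1000 UMIs, and the count of 6 became 5 as a mean over cells and 11 at 1.5-fold. For blank hydrogels the median (0.08) was -0.0864 as a mean over cells, where 2 members still passed 2-fold but 1 of them was lower, and 10 passed 1.5-fold. The cause was not tested. The median of all genes itself shifted by -0.19 (Ndrg2-KO against VD3 stimulated DCs, without mitochondrial and ribosomal protein genes), by -0.32 and -0.21 (wounds with Ndrg2-KO DCs and blank hydrogels, mean over cells), by 0.14 (wounds with Ndrg2-KO DCs, median-ratio scaling) and by 0.11 (Ndrg2-KO against VD3 stimulated DCs, under 5% mitochondrial UMIs). With at least 4 markers per DC class, the sign of the members' median was kept in 7 of 9 class comparisons, and with 4000 UMIs drawn in 9 of 9. At resolution 1.0 it was kept in 10 of 10 comparisons of named wound classes. Proliferation-marker cells and the unnamed wound clusters were not put through these alternatives. Sod3 was not compared in the cultures, where it had 59, 11 and 10 UMIs, and 16 members had enough UMIs in T cell-like cells.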
